A study of Mus musculus with 23 samples.

Results

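Integrins, laminins and syndecans join cardiac cells to the matrix around them. The 45 genes described here were picked by symbol from the 55487 genes of a deposited table: all symbols that begin with Itga or Itgb and a subunit letter or number, all laminin chain genes, and Sdc1 to Sdc4, with pseudogenes left out. Of these, 18 encode integrin alpha subunits, 8 encode integrin beta subunits, 11 encode laminin chains and 4 encode syndecans. The other 4 were caught by the symbol alone: Itgb2l, a beta-like gene with 1.09 normalised counts in 1 library and 0 in the other 22, and Itgb1bp1, Itgb1bp2 and Itgb3bp, which are named as integrin binding proteins and are not subunits.

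Poly(A) RNA of whole hearts from 23 mice was sequenced in 2 cardiometabolic models of heart failure in which the ejection fraction is preserved, each in its own run with its own controls. The db/db+Aldo group of run 2 (n = 8, with 4 females) was made of Leprdb/db mice that received aldosterone from minipumps, 0.3 µg/h over 4 weeks, starting at an age of 12 weeks. Its sham group (n = 7, with 4 females) was made of wild-type C57BL/6J mice whose pumps held vehicle. Their start age was also 12 weeks and the duration 4 weeks. The HFD+L-NAME group of run 1 (n = 4, with 2 females) was made of wild-type mice that ate a diet of 60 kcal% fat and drank L-NAME at 0.5 g/L, which inhibits nitric oxide synthases, over 15 weeks starting at an age of 10 weeks. Its chow group (n = 4, with 2 females) was age-matched. Genotype and aldosterone cannot be told apart, nor can diet and L-NAME, and the controls of the models ate different chows. Db/db mice carry a splicing mutation of the leptin receptor in all their cells, so the genotype is not limited to the heart.

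An integrin is a pair of 1 alpha and 1 beta subunit that spans the membrane and ties the matrix to the actin cytoskeleton. The alpha subunit largely sets the ligand: those encoded by Itga3, Itga6 and Itga7 bind laminins, those of Itga1, Itga2, Itga10 and Itga11 bind collagens, those of Itga5, Itga8, Itgav and Itga2b read the RGD motif of fibronectin and related proteins, and the leukocyte alphas pair with the products of Itgb2 or Itgb7. Laminins are trimers of an alpha, a beta and a gamma chain and form the network of the basement membrane that surrounds each cardiomyocyte and underlies endothelium. Syndecans are transmembrane proteoglycans whose heparan sulfate chains bind matrix proteins and growth factors and act beside integrins as co-receptors.

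Libraries summed to between 21258779 and 25692431 counts. These were divided by the authors' size factors, as estimated from their deposited means, to give normalised read counts. Counts from the mitochondrial genome made up 46.6% ± 4.13 (SD, n = 8) of db/db+Aldo and 38.9% ± 4.68 (SD, n = 7) of sham libraries, and 48.4% ± 3.35 and 48.1% ± 1.40 (SD, n = 4 each) of HFD+L-NAME and chow libraries. Without these size factors (on raw counts, on counts scaled by library total, or on the deposited values), the median change of all genes in db/db+Aldo hearts moved from −0.02 to between −0.27 and −0.22 (log2), so changes in that model are read relative to the rest of the transcriptome. The library of sham replicate 1, labelled male, held 1358 normalised counts of Xist beside 563 of Ddx3y. Male libraries otherwise held at most 27.6 of Xist, and the female ones held at least 1802, so this library stood apart from its label. Names of the run 2 libraries fall into 3 series: B (db/db+Aldo replicates 1 and 2), 9xx (db/db+Aldo 3 and 4, sham 1 to 4) and 26xx (db/db+Aldo 5 to 8, sham 5 to 7). Results were repeated within the 9xx and the 26xx series, and without 5 libraries put in doubt by earlier results of these data (sham 1 and 7, db/db+Aldo 1 and 5, HFD+L-NAME 3). The treated 9xx libraries are all male. As the test adjusts for sex, a change within 9xx sets them against sham replicates 1 and 2 alone. All 12 cardiomyocyte markers listed were detected in each group. In whole-heart RNA, fewer cells of a type and less RNA per cell cannot be told apart. The labels do not say how animals were housed or bred, and the p-values cover only the spread among these samples, which may be technical.

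The matrix receptors and laminins of the control hearts were led by a few genes. Per kilobase of annotated exon, the mean sham level was 1285 ± 135 (SD, n = 7) normalised counts for Lamb2, which encodes the laminin beta chain typical of mature muscle basement membranes, and 1278 ± 94.3 for Itgb1, which encodes the common beta subunit of the laminin and collagen receptors. These neighbours in the order overlapped across libraries, as did Itgb1bp2 (1317 ± 59.5), which encodes the muscle chaperone melusin that binds the cytoplasmic tail of the integrin beta subunit. The next levels were those of Lamc1, which encodes the usual gamma chain, at 472 ± 28.8, and Itgb5, a beta subunit that pairs with the product of Itgav, at 471 ± 48.1.

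Among laminin alpha chains, sham hearts held Lama5 at 348 ± 63.5 normalised counts per kilobase, Lama4 at 140 ± 11.9 and Lama2 at 131 ± 7.17. Lama2 encodes the alpha chain of muscle laminin, and Lama4 and Lama5 those of vessel laminins. The ranges of Lama4 and Lama2 overlapped, and that of Lama5, from 247 to 417, lay above both. Among laminin-binding alpha subunits, Itga7, the form of mature muscle, stood at 369 ± 30.5, above Itga6 at 132 ± 8.06 and Itga3 at 59.2 ± 5.68, with no overlap. Sdc3 led the syndecans at 301 ± 27.9, followed by Sdc2 at 222 ± 21.5, Sdc4 at 77.0 ± 12.1 and Sdc1 at 18.1 ± 1.43, and again the ranges did not overlap. In chow hearts the same 3 genes held the first ranks, Itgb1bp2 at 1240 ± 39.2 (SD, n = 4), Lamb2 at 901 ± 95.7 and Itgb1 at 882 ± 30.5.

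**Figure D1:**
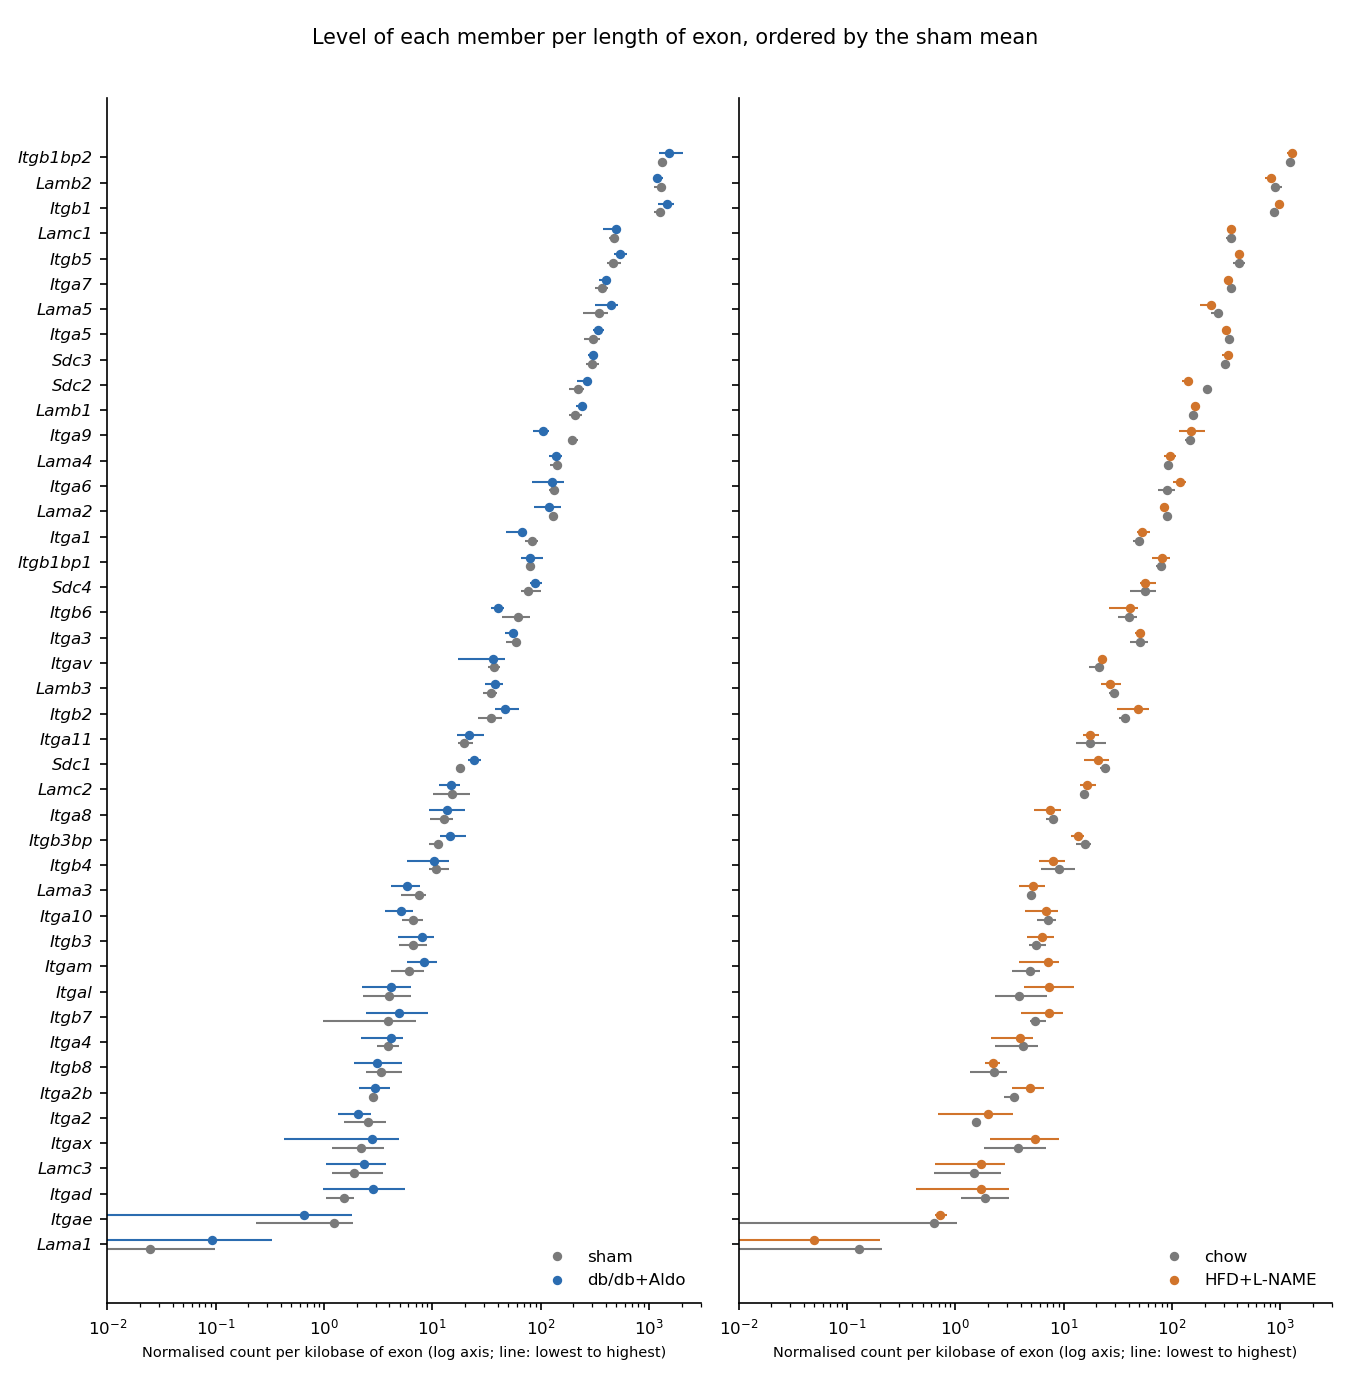
Normalised count per kilobase of exon for each member (log axis), with sham and db/db+Aldo on the left and chow and HFD+L-NAME on the right. Points are group means and lines run from the lowest to the highest library. Values under 0.01 lie off the axis and Itgb2l is not drawn. Levels span from Itgb1bp2 and Lamb2 at the top to Lama1 at the bottom, and the largest gap between a treated group and its controls among abundant members is that of Itga9 on the left.

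Against sham, db/db+Aldo hearts had less RNA of the integrin subunits Itga9, Itgb6 and Itga1 and more of the syndecans Sdc1 and Sdc2, of the laminin chains Lama5 and Lamb1, of the integrin beta subunits Itgb2 and Itgb5 and of Itgb3bp. Of 45 members, 42 reached the mean of 10 normalised counts set for testing in this model, and Itgae, Itgb2l and Lama1 did not. With limma and Benjamini-Hochberg adjustment over all 14121 genes tested, 7 members rose and 3 fell. Across all genes 19.2% were called, 9.96% as higher and 9.21% as lower, so 10 of 42 is close to the share in the transcriptome. The median change of the tested members was 0.08 and that of all genes −0.02 (log2). At an unadjusted p under 0.05 there were 17 of 42 members, beside 4535 of all 14121 genes.

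The call count depended on single libraries. It was 5 when db/db+Aldo 8, sham 4 or sham 6 was left out, and 6 when sham 3 was, and it ranged up to 13 over the 15 libraries left out in turn. The risers numbered 2 with sham 4 or 6 left out, 3 with sham 3 or db/db+Aldo 8 left out, and 4 with sham 2 or db/db+Aldo 2, 4 or 6 left out. Without size factors, 0 members rose and 8 or 9 fell.

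Itga9 had the largest change of any called member. Its product pairs with the beta subunit of Itgb1 and binds tenascin C, osteopontin and other ligands. Sham libraries held 1408 to 1687 normalised counts, with a median of 1513, and db/db+Aldo libraries held 660 to 920, with a median of 824. All 8 treated libraries lay below all 7 sham libraries, with no overlap. Across all genes, the groups did not overlap for 1.79% in this direction and for 2.29% in the other. The change was −0.93 ± 0.07 (log2, SE), a fold of 0.525, with an adjusted p of 7.58e-08. It ranged from −1.20 to −0.89 over 34 alternatives and passed the threshold in each, at −0.91 within the 9xx and −0.98 within the 26xx series of library names. The gene lies at chr9:118606690-118901003 (GRCm38, + strand). Itga4, the related alpha subunit of the same ligand class, was at 54.0 ± 9.64 in sham and 57.7 ± 13.5 in db/db+Aldo (adjusted p = 0.805).

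Itgb6 encodes a beta subunit that pairs only with the product of Itgav, binds fibronectin and releases TGF-beta from its latent form, and is best known from epithelium. Its sham libraries held 311 to 566 normalised counts (median 434), and the treated ones 245 to 327 (median 299). The groups overlapped through sham replicate 1 at 311, and the 6 other sham libraries, from 366 up, lay above all treated ones. The change was −0.59 ± 0.11 (adjusted p = 0.00126) and −0.68 without sham replicate 1. Within the 26xx libraries it was −0.75 (adjusted p = 0.00662) and within the 9xx libraries −0.28 (0.527). Itgb6 lies at chr2:60598292-60722643 (− strand).

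Its partner Itgav stood at 396 ± 40.8 in sham and 392 ± 92.1 in db/db+Aldo hearts (change −0.05 ± 0.15, adjusted p = 0.855). The latter spread held 1 low library, replicate 5, at 186. Itgb8, which encodes another beta subunit known to release TGF-beta with that partner, had a change of −0.17 ± 0.20 (adjusted p = 0.591).

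Itga1 encodes a collagen-binding alpha subunit found on fibroblasts, smooth muscle and capillary endothelium. Sham libraries held 1339 to 1741 normalised counts (median 1568) and treated ones 898 to 1382 (median 1323). The groups overlapped, with all 8 treated libraries below the sham mean and 5 of 8 below all sham libraries. The change was −0.30 ± 0.09 (adjusted p = 0.0198). It was not called without db/db+Aldo replicate 8 (adjusted p = 0.0507) or within either series of library names (−0.38 and −0.20). Itga1 lies at chr13:114953096-115101964 (− strand) and shares exon sequence with Gm49395, an annotated gene on the same strand, whose reads cannot be separated from it here. The 3 other collagen-binding alphas did not pass the test: the changes were −0.37 ± 0.15 for Itga10 (adjusted p = 0.0886), −0.25 ± 0.22 for Itga2 and 0.14 ± 0.12 for Itga11.

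Sdc1 and Sdc2 were the called syndecans. Sham libraries held 62.7 to 76.6 normalised counts of Sdc1 (median 67.4), and db/db+Aldo libraries 82.0 to 106 (median 92.5). All 8 treated libraries lay above all 7 sham libraries, a separation found for 2.29% of all genes in this direction. The change was 0.42 ± 0.09 (adjusted p = 0.00377), a fold of 1.34, and it passed when any 1 library was left out. It was 0.64 within the 9xx libraries and 0.30 within the 26xx ones, neither of which passed (adjusted p = 0.111 and 0.306). Without size factors it was 0.17 to 0.22 and was not called, though it stayed 0.44 above the median of all genes, as with the size factors. Sdc1 lies at chr12:8771323-8793715 (+ strand).

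For Sdc2, the sham libraries held 646 to 896 (median 789) and the treated ones 766 to 1037 (median 932). The groups overlapped through treated replicate 5 at 766, and the other 7 treated libraries lay above all sham ones. The change was 0.27 ± 0.07 (adjusted p = 0.0159) and 0.38 without the libraries put in doubt. It was 0.39 and 0.16 within the 26xx and 9xx series, uncalled in both, and 0.02 to 0.07 without size factors. Sdc2 lies at chr15:32920723-33034935 (+ strand). Sdc4, the syndecan of focal adhesions, changed by 0.21 ± 0.09 and did not pass (adjusted p = 0.112), and Sdc3 was at 1804 ± 167 and 1813 ± 121 (adjusted p = 0.981).

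Of the 10 laminin chains tested, 2 rose and 0 fell, close to the share of all genes called (19.2%). Lama5 libraries ranged from 2815 to 4750 in sham (median 4064) and from 3651 to 5877 in db/db+Aldo (median 5240). The groups overlapped, with 6 of 8 treated libraries above all sham ones and replicate 5 the lowest. The change was 0.36 ± 0.12 (adjusted p = 0.0345). It was not called when sham 2, 4 or 6 or db/db+Aldo 2, 3, 4, 6 or 8 was left out (adjusted p up to 0.0813), nor within the 26xx (0.18) or 9xx (0.49) libraries. Lama5 lies at chr2:180176373-180225859 (− strand).

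Lamb1, the beta chain that pairs with Lamc1 in vessel and developing basement membranes, ranged from 1832 to 2399 in sham (median 2065) and from 2120 to 2598 in db/db+Aldo (median 2407). All 8 treated libraries lay above the sham mean and 4 of 8 above all sham libraries. The change was 0.21 ± 0.07 (adjusted p = 0.0304). Leaving out sham 1, 2, 3, 4 or 6 or db/db+Aldo 2, 4, 6 or 8 ended the call (adjusted p up to 0.0833), and without size factors the change was −0.05 to 0.01, against −0.27 to −0.22 for all genes. Lamb1 lies at chr12:31265234-31329644 (+ strand). The muscle chains did not pass: the changes were −0.16 ± 0.12 for Lama2, −0.10 ± 0.07 for Lamb2 and 0.07 ± 0.08 for Lamc1.

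Lama2 differed between library series within the treated group. The 4 treated libraries of the 26xx series held 1431 to 1603 normalised counts, and the 2 of the 9xx and 2 of the B series held 2474 to 2525 and 2257 to 2301. Sham libraries of both series held 1976 to 2335 and 2115 to 2233, so the 26xx treated libraries lay below all sham libraries and the 4 others within or above them. Lama3, a chain of epithelial laminins, changed by −0.33 ± 0.12 (adjusted p = 0.0686) and passed without sham replicate 1, db/db+Aldo replicate 1 or db/db+Aldo replicate 5 (down to 0.0277).

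Among beta subunits, Itgb2 and Itgb5 rose beside the fall of Itgb6. Itgb2 encodes the beta subunit shared by leukocyte integrins. Sham libraries held 81.3 to 134 normalised counts (median 91.2) and treated ones 115 to 193 (median 135). All 8 treated libraries lay above the sham mean and 4 of 8 above all sham libraries. The change was 0.44 ± 0.14 (adjusted p = 0.0304). Leaving out sham 3, 4, 5 or 6 or db/db+Aldo 6, 7 or 8 ended the call (adjusted p up to 0.0759). The change was 0.72 within the 26xx libraries (adjusted p = 0.0328) and of the opposite sign, −0.13, within the 9xx libraries (0.718). That 9xx change compares males alone, with sham replicate 1 among the controls. The means over all 9xx libraries were 120 in db/db+Aldo and 109 in sham. Itgb2 lies at chr10:77530252-77565708 (+ strand).

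The leukocyte alpha subunits that pair with Itgb2 did not pass. Itgam, on macrophages and neutrophils, changed by 0.45 ± 0.17 (adjusted p = 0.0701) and Itgad by 0.63 ± 0.32 (0.172, and 0.0401 without db/db+Aldo replicate 5). Itgal, on lymphocytes, changed by 0.09 ± 0.23 and Itgax by 0.13 ± 0.40. Exons of Itgad overlap Cox6a2 on the opposite strand, and those of Itgam overlap Gm49368 on the same strand. Reads of such overlaps cannot be told apart here. Itgam was 0.83 within the 26xx and −0.20 within the 9xx libraries, where its means were 32.4 in db/db+Aldo and 31.2 in sham. It passed without sham replicate 1, db/db+Aldo replicate 1 or db/db+Aldo replicate 3 (adjusted p down to 0.0333). Of 14 macrophage and monocyte markers tested, 5 rose and 0 fell, beside 9.96% and 9.21% of all genes. The sum of the 15 on the list ran from 6780 to 9417 in db/db+Aldo against 5300 to 7791 in sham. Within the 9xx libraries 0 of these markers rose and 1 fell, and without size factors 2 or 3 rose. The sum of 10 neutrophil markers ran from 33.0 to 115 against 37.6 to 86.4, with Ly6g at 0 throughout. The part of such cells in the change of Itgb2 was not tested.

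Itgb5 ranged from 1445 to 1974 in sham (median 1681) and from 1682 to 2232 in db/db+Aldo (median 1920), with overlap. Its change was 0.20 ± 0.07 (adjusted p = 0.0415), and −0.05 to 0.00 without size factors. It was no longer called when sham 2, 3, 4, 5 or 6 or db/db+Aldo 1, 2, 3, 4 or 8 was left out (up to 0.0896). Itgb5 lies at chr16:33829665-33949338 (+ strand). Itgb1, the most abundant integrin gene, ranged from 4521 to 5651 in sham and from 4987 to 6881 in db/db+Aldo. Its change of 0.19 ± 0.08 did not pass (adjusted p = 0.0875). It passed without db/db+Aldo replicates 1 or 5 (down to 0.0213) and turned to between −0.08 and −0.01 without size factors.

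Itgb3bp encodes a centromere protein, also named for binding an integrin tail. Sham libraries held 42.9 to 58.6 normalised counts (median 51.3) and treated ones 54.0 to 94.1 (median 63.8). Treated replicates 1 and 7 were highest, and the groups overlapped. The change was 0.36 ± 0.12 (adjusted p = 0.0411). It was lost when any sham library other than replicate 2 or db/db+Aldo 1, 3 or 7 was left out (up to 0.0910) and without the libraries put in doubt (0.126). Its gene at chr4:99765402-99929813 (− strand) shares exon sequence with Pgm1 on the opposite strand, and the use of strand in counting is not given, so reads of the 2 genes cannot be told apart here. In the authors' deposited table Itgb3bp had an adjusted p of 0.0527, and the 9 other called members were called there in the same direction.

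**Figure D2:**
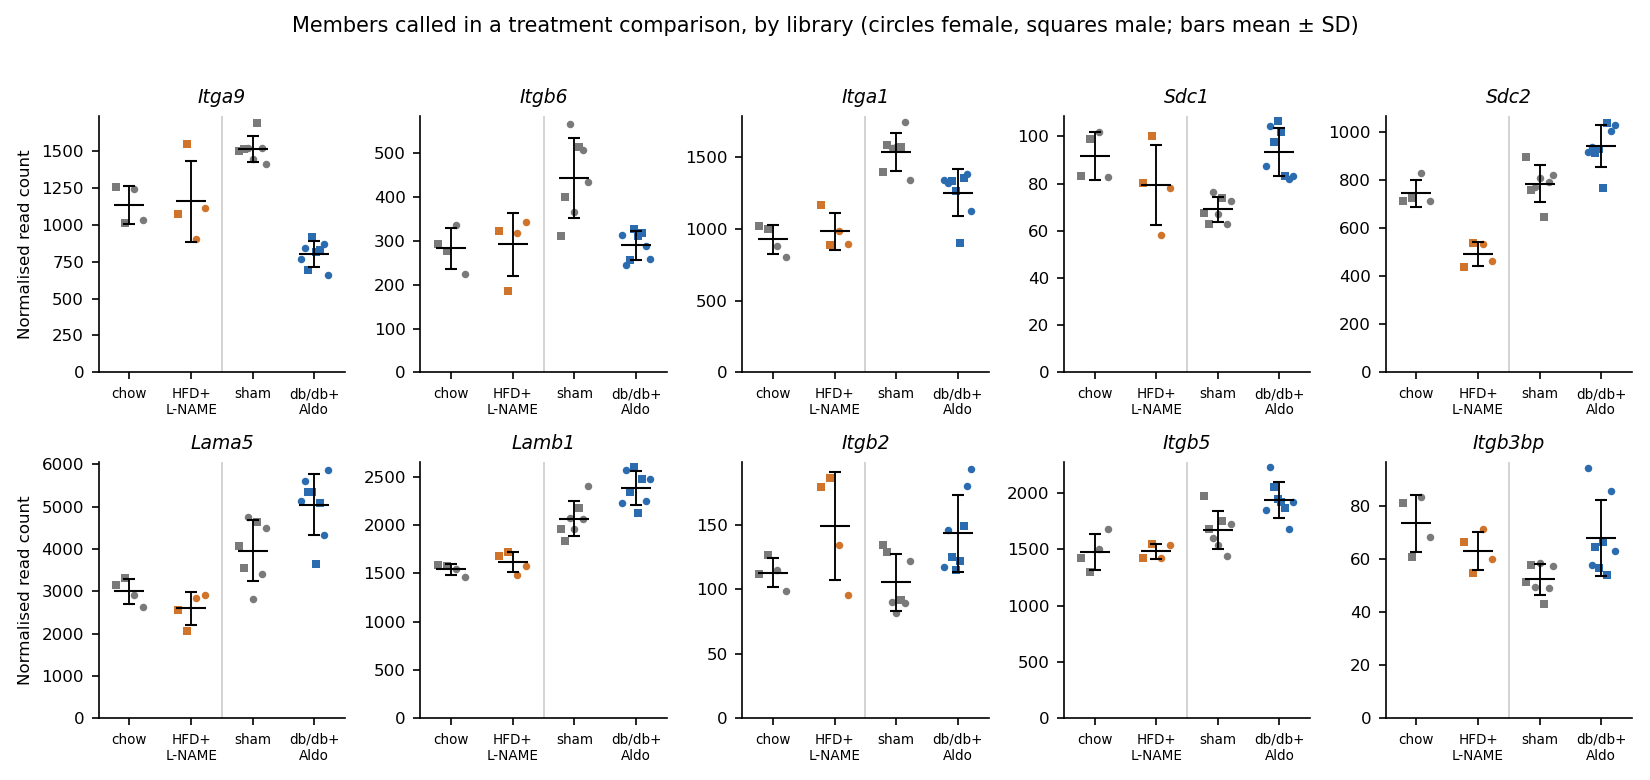
Normalised read count of the 10 members called in a treatment comparison, 1 point per library, with bars for the group mean ± SD; axes start at 0. Runs 1 and 2 are divided by a vertical line and are not to be compared. Itga9 and Sdc1 do not overlap between sham and db/db+Aldo, and Sdc2 does not overlap between chow and HFD+L-NAME.

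Markers of other cells were counted in the same groups, beside 9.96% of all genes called higher and 9.21% lower. Of 13 fibroblast markers 8 rose and 0 fell in db/db+Aldo hearts, and their sum ran from 49214 to 58599 against 40336 to 47417 in sham. Without size factors 2 or 3 of them rose and 1 fell, and 4 rose within the 26xx and 1 within the 9xx libraries. Of 12 smooth muscle and pericyte markers tested 0 rose and 2 fell, with the list's sum from 64379 to 74797 against 68557 to 80285. Of 13 endothelial markers 2 rose and 1 fell (30758 to 35895 against 28347 to 34344). Without size factors 1 endothelial marker rose and 5 fell, and 2 fell with sham 4 or db/db+Aldo 1 or 5 left out. Of 12 cardiomyocyte markers 1 rose and 2 fell. Of 11 epicardial and mesothelial markers 1 rose (713 to 1364 against 611 to 886). Apart from the fibroblast list, these counts are small and near the shares of all genes. No marker on these 5 lists was at 0 in all libraries of a group. On smaller lists, 2 of 3 platelet and megakaryocyte markers rose and 0 fell, and of 3 adipocyte markers 1 rose and 2 fell. Of 9 Schwann cell markers 0 rose and 1 fell. No T and NK cell, B cell, neutrophil or red blood cell marker passed. The part of any of these cells in the member changes was not tested.

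Promoter sequence was available for 29 of the 45 members in RefSeq on GRCm38.p6, from 250 bases before to 50 after an annotated start. The start lay within 1000 bases of the gene's own start for 25 of them, of which 24 were tested in the db/db+Aldo model. The GC box (GGGCGG, or CCGCCC on the opposite strand) occurred in 35.7% of 32851 promoters of that length. It occurred in all 4 promoters of members that rose (Itgb5, Lama5, Lamb1 and Sdc1), in 0 of 2 of those that fell (Itga1 and Itgb6), and in 9 of 18 of members that were not called. The 2 other motifs searched did not split this way. The CCAAT box (37.4% of all promoters) occurred in 2 of 4, 0 of 2 and 2 of 18. A steroid receptor half-site (AGAACA or TGTTCT, 19.0% of all promoters) occurred in 0 of 4, 0 of 2 and 4 of 18. These counts are small and describe letters only, and the called members Itga9, Sdc2, Itgb2 and Itgb3bp are not among them. Of each direction 2 are shown, 5′ to 3′ on the gene's strand, with GC boxes in capitals: Sdc1 at chr12:8771146-8771445 (+), Lama5 at chr2:180225810-180226109 (−), Itga1 at chr13:115101915-115102214 (−) and Itgb6 at chr2:60722554-60722853 (−).
Sdc1: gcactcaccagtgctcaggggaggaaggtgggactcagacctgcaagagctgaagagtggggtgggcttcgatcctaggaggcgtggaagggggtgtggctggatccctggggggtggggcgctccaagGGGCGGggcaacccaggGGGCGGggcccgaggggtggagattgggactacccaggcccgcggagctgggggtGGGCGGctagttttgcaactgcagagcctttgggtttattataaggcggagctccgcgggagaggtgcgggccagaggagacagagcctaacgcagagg
Lama5: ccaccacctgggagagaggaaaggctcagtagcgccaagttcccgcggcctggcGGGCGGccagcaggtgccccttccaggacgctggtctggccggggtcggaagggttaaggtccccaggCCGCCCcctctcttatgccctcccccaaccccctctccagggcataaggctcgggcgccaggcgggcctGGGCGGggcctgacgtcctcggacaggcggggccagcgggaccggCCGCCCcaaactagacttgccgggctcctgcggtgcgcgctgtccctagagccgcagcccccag
Itga1: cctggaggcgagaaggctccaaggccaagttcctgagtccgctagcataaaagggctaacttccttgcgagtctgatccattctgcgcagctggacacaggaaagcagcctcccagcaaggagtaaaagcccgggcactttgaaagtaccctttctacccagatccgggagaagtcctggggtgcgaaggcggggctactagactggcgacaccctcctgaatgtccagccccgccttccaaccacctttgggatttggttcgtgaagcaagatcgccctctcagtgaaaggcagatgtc
Itgb6: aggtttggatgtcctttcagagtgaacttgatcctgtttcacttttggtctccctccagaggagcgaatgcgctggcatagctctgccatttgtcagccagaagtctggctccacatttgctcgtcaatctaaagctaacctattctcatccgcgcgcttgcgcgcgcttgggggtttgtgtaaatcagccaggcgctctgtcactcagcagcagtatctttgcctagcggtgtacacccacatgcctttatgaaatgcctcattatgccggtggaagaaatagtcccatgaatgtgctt
Sdc1 holds 3 GC boxes and Lama5 holds 4. Of the members not called, Sdc3 and Itga3 also hold 3 and Sdc4 holds 4, and the rest hold fewer.

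HFD+L-NAME hearts were set against chow to ask the same of the diet model. There Sdc2 fell, and 0 of the 39 other members tested passed. Chow libraries held 712, 723, 828 and 713 normalised counts of Sdc2, and HFD+L-NAME libraries 437, 537, 533 and 464. All 4 treated libraries lay below all 4 chow libraries, a separation found for 4.24% of all genes in this direction. The change was −0.60 ± 0.09 (adjusted p = 0.00383), a fold of 0.661, and it was between −0.66 and −0.54 when 1 library was left out, called each time. It was not called when limma was run without a variance trend (adjusted p = 0.0602). The authors' deposited table gives −0.59 with an adjusted p of 4.08e-07.

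In this comparison 40 members were tested, as Itgad and Lamc3 were also under the mean of 10. Across all 13801 genes tested 2.18% were called, 1.18% as higher and 1% as lower. The members' median change was 0.03 and that of all genes −0.00. At an unadjusted p under 0.05 the members numbered 6 of 40, near the share of all genes (2108 of 13801).

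The member nearest to the threshold was Itga6, a laminin-binding alpha subunit of endothelium and other cells. It was at 965, 902, 728 and 666 normalised counts in chow and 1169.98, 1009.6, 1215 and 918 in HFD+L-NAME. The groups overlapped, and the change was 0.41 ± 0.10 (adjusted p = 0.0701), which passed without HFD+L-NAME replicate 2 (0.0283). Itgal was at 15.2, 46.5, 18.6 and 20.5 in chow and 82.6, 38.4, 44.5 and 28.0 in HFD+L-NAME, a change of 0.94 ± 0.34 (adjusted p = 0.203). Chow replicate 2 stood apart from its group, and the groups overlapped. Itgb2 changed by 0.36 ± 0.15 (adjusted p = 0.265) and Itgam by 0.49 ± 0.28 (0.458), and of 14 macrophage and monocyte markers 2 rose, against 0 under limma voom and 0 when any 1 library other than HFD+L-NAME replicates 2 or 4 was left out.

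Other marker lists were counted in this comparison too, where 1.18% of all genes rose and 1% fell. Of 13 endothelial markers 3 rose and 0 fell (median change 0.20), and their sum ran from 31265 to 36766 in HFD+L-NAME against 26623 to 32188 in chow. The risers were 2 when any 1 library other than HFD+L-NAME replicate 2 was left out, and 4 without that one. Of 9 Schwann cell markers 0 rose and 2 fell (median −0.63), with the list's sum from 511 to 695 against 643 to 942. The fallers were 1 when any 1 library other than HFD+L-NAME replicate 3 was left out. Of 13 fibroblast markers 1 rose, and 0 did with chow 1 or 4 or any HFD+L-NAME library left out. On smaller lists, 1 of 7 red blood cell, 1 of 4 B cell and 1 of 3 adipocyte markers rose and 0 fell. Under limma voom these risers were 0, 0 and 1. No cardiomyocyte, smooth muscle and pericyte, T and NK cell, neutrophil, platelet or epicardial marker passed. The part of these cells in the changes of Sdc2 and Itga6 was not tested.

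Lama2 was the other member whose groups did not overlap, with 1428 to 1489 normalised counts in chow and 1310 to 1421 in HFD+L-NAME, but its change was small and not called. Across all genes the groups did not overlap for 4.24% in this direction and for 3.96% in the other. The members called in db/db+Aldo hearts had changes of 0.01 ± 0.13 (Itga9), 0.03 ± 0.18 (Itgb6), 0.09 ± 0.09 (Itga1), −0.23 ± 0.16 (Sdc1), −0.22 ± 0.11 (Lama5), 0.07 ± 0.06 (Lamb1), 0.01 ± 0.07 (Itgb5) and −0.21 ± 0.15 (Itgb3bp) here. None of these passed, and those of Itga9, Itgb5 and Itgb6 had either sign over the alternatives.

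**Figure D3:**
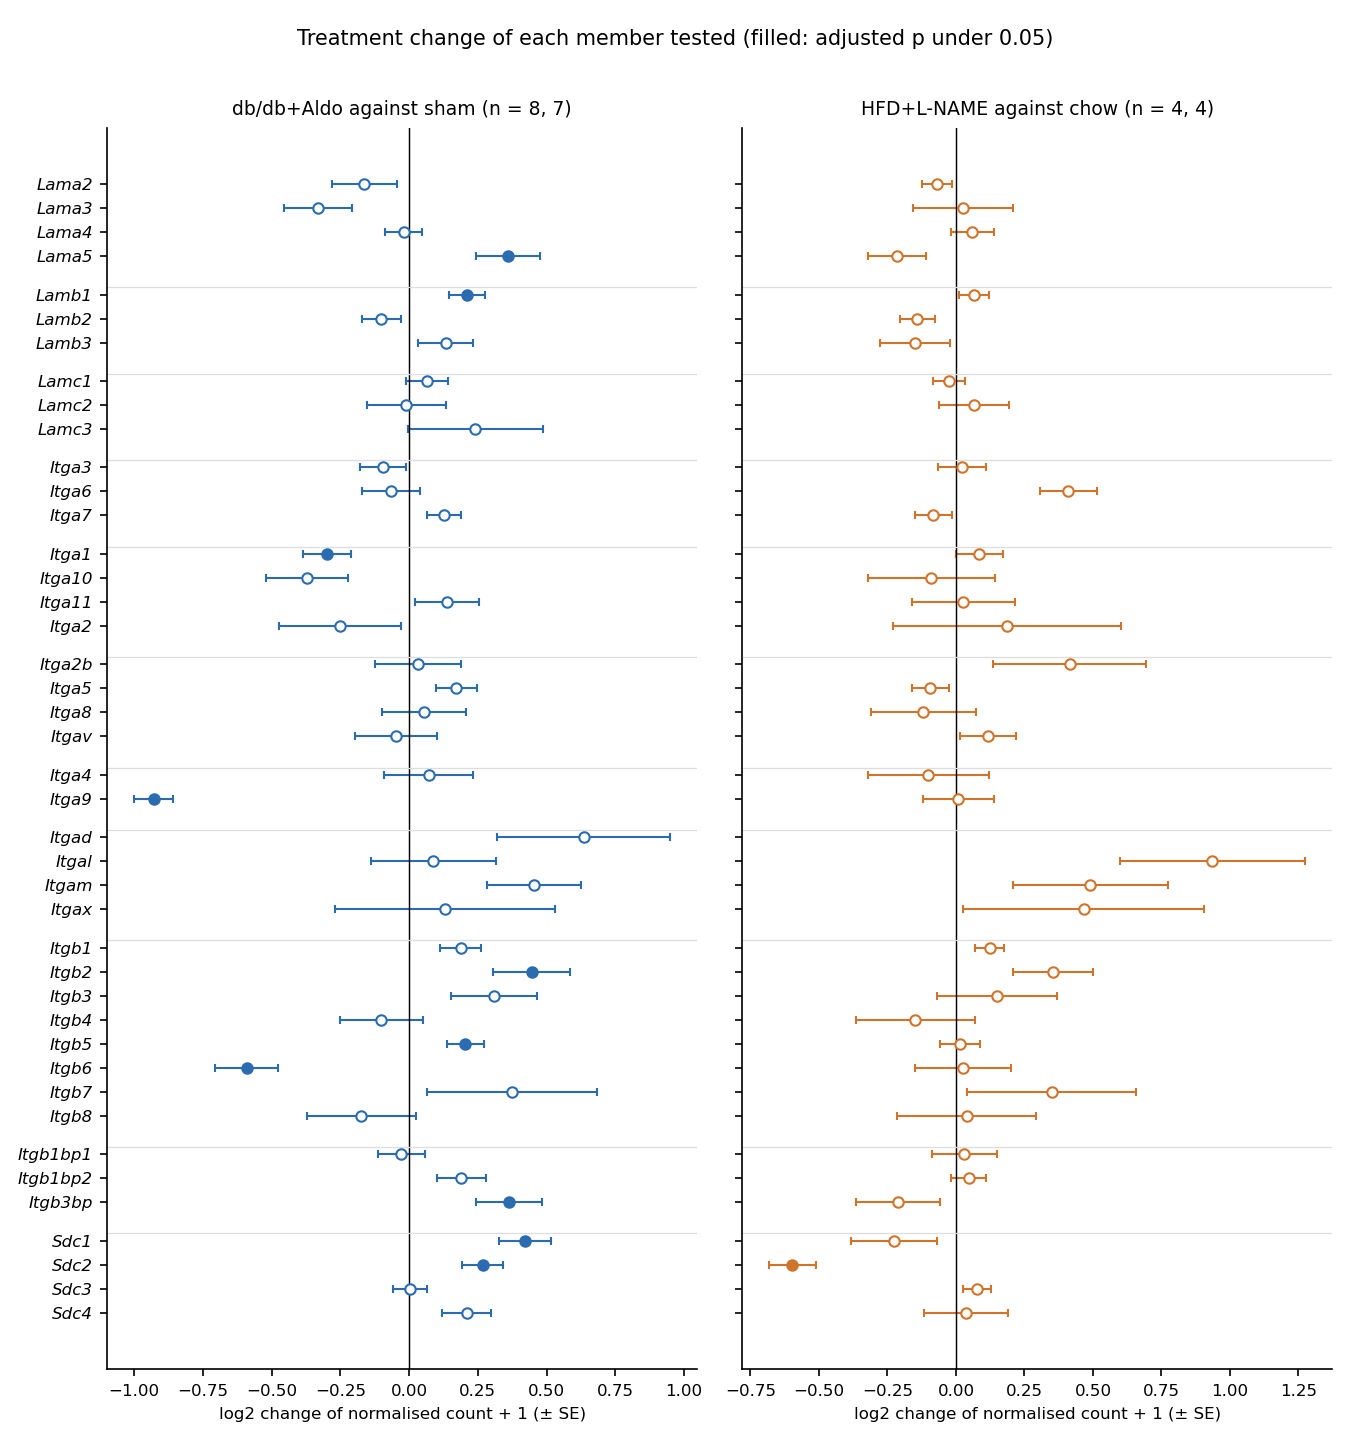
Log2 change of each tested member with its standard error, grouped by role, for db/db+Aldo against sham on the left and HFD+L-NAME against chow on the right. Filled points passed an adjusted p of 0.05 in limma. On the left 3 filled points lie below 0 and 7 above, with Itga9 at −0.93 the lowest, and on the right the filled point is Sdc2 at −0.60.

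The difference of the 2 treatment effects, each taken within its own run, was tested for the 40 members tested in both models. It passed for 3. Across 13589 genes 5.39% passed, 3.05% as higher and 2.33% as lower in db/db+Aldo. For Sdc2, which rose in one model and fell in the other, the difference was 0.86 ± 0.12 (adjusted p = 0.000117). For Itga9 it was −0.94 ± 0.15 (0.000319) and for Sdc1 0.65 ± 0.17 (0.0242).

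The difference of Itga9 passed in all 38 alternatives, and that of Sdc2 in all except the fit to the deposited values (0.55, adjusted p = 0.0888). That of Sdc1 was lost without chow replicates 2 or 3 or HFD+L-NAME replicates 1 or 3 (up to 0.0791), and also under 6 other settings. Lama5 at 0.57 ± 0.19 (0.0766) and Itgb6 at −0.62 ± 0.22 (0.103) did not pass, so their effects are not shown to differ between models. Lama5 passed without db/db+Aldo replicate 5 (0.0188), and Itgb6 without sham replicate 1 (0.0462) or HFD+L-NAME replicate 2 (0.0218).

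No member was called for a sex by treatment interaction or between females and males of a treated group in limma. At an unadjusted p under 0.05 the interaction numbered 1 member in the db/db+Aldo model and 3 in the HFD+L-NAME model, and the sex comparison 1 among db/db+Aldo and 8 among HFD+L-NAME hearts. Over all genes tested, that unadjusted threshold was met by 381 of 14121, 916 of 13801, 371 of 14121 and 1573 of 13801 in these 4 tests. At an adjusted p under 0.05, 0%, 0.00725%, 0.0567% and 0.254% of all genes were called in them. The authors' deposited tables of females against males also called 0 members. The lowest adjusted p among HFD+L-NAME hearts was 0.169, for Itgb2, at 179 and 186 normalised counts in males and 135 and 95.7 in females. Lama5 was called in both tests of this model when HFD+L-NAME replicate 1 was left out, which leaves 1 treated male, taken to vary like the other groups.

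Genes of the same pathways were counted on 5 further lists. Of all genes tested, 9.96% rose and 9.21% fell in db/db+Aldo hearts, and 1.18% and 1% in HFD+L-NAME hearts. Ligands of integrins moved most in db/db+Aldo hearts: of 22 tested 11 rose and 1 fell, with a median change of 0.32 (all genes −0.02). The matricellular genes Ccn1 (0.75 ± 0.11) and Ccn2 (0.74 ± 0.13) and the thrombospondin Thbs2 (0.64 ± 0.11) had the smallest p. Without size factors 5 or 7 rose and 4 fell, and 6 rose within the 26xx and 3 within the 9xx libraries. Without db/db+Aldo replicate 5 the fallers were 2. In HFD+L-NAME hearts 5 of 24 rose and 0 fell (median 0.16, all genes −0.00). Fibronectin Fn1 (0.39 ± 0.07), thrombospondin Thbs1 (1.10 ± 0.21) and periostin Postn (0.68 ± 0.14) led. Without chow replicate 1 none of the 24 passed, and 1 to 3 did without any other library.

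Heparan sulfate enzymes, glypicans and syndecan partners rose in 8 of 33 cases and fell in 0 in db/db+Aldo hearts (median 0.05). Of all genes 9.96% rose and 9.21% fell. The risers included the chain polymerase Ext1 (0.31 ± 0.07), the sulfatase Sulf2 (0.31 ± 0.07) and the glypican Gpc4 (0.35 ± 0.08). Without sham replicates 3, 5 or 7 the risers were 5. Without size factors 0 rose and 5 or 6 fell, and 0 rose within the 26xx and 1 within the 9xx libraries. None of 32 passed in HFD+L-NAME hearts in limma or limma voom, and 1 rose without HFD+L-NAME replicate 4. At an unadjusted p under 0.05 there were 6 of 32, beside 2108 of all 13801 genes.

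Of 23 basement membrane partners of laminin, 2 rose and 4 fell in db/db+Aldo hearts (median −0.04), beside 9.96% and 9.21% of all genes. Without size factors 0 rose and 10 fell, within the 26xx libraries 0 rose and 4 fell, and within the 9xx libraries 0 passed in either direction. The basement membrane protein Frem2 (−0.75 ± 0.11), pikachurin Egflam (−0.58 ± 0.10) and the collagen IV chain Col4a4 (−0.54 ± 0.11) were the most significant, each called in all alternatives except within the 9xx libraries. The risers numbered 1 with sham 2 or 3 left out and 4 with db/db+Aldo 5 left out. In HFD+L-NAME hearts 5 of 22 rose and 0 fell (median 0.11). These included the main collagen IV chains Col4a1 (0.51 ± 0.06) and Col4a2 (0.41 ± 0.06) and the collagen chaperone Sparc (0.37 ± 0.06), and 3 rose without chow replicate 3 or HFD+L-NAME replicate 4.

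Adhesion complex genes, on the cytoplasmic side of integrins, rose in 4 and fell in 3 of 34 cases in db/db+Aldo hearts (median 0.05), close to the share of all genes called (19.2%). Without size factors 1 rose and 11 or 12 fell, and 1 rose within the 26xx and 2 within the 9xx libraries, with 0 fallers in either. The tyrosine kinase Ptk2b (1.18 ± 0.14), kin of focal adhesion kinase, passed in all 34 alternatives. Kank2 (−0.37 ± 0.05), a talin-binding scaffold, and the tensin Tns2 (0.34 ± 0.09) followed. The fallers numbered 1 with sham 1, 3 or 5 or db/db+Aldo 8 left out, and 5 with db/db+Aldo 5 left out. None of 34 passed in HFD+L-NAME hearts in limma or limma voom, and 1 rose without chow replicate 4. There, 8 of 34 had an unadjusted p under 0.05, beside 2108 of all 13801 genes.

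The dystroglycan and dystrophin complex, the other laminin receptor of cardiomyocytes, had 3 risers and 1 faller of 21 in db/db+Aldo hearts (median −0.03), close to the share of all genes called. Without size factors the balance turned, to 0 risers and 7 or 8 fallers, and within the 26xx and 9xx libraries 0 and 1 rose and 0 fell. The sarcoglycan Sgce (0.37 ± 0.07) rose and the syntrophin Sntb1 (−0.42 ± 0.10) fell. Without db/db+Aldo replicate 5 there were 5 risers and 3 fallers, and with sham 1 or 2 or db/db+Aldo 1 or 7 left out there were 2 fallers. In HFD+L-NAME hearts the sarcoglycan Sgca (−0.27 ± 0.05, adjusted p = 0.0242) fell, and that call ended without chow replicates 1, 3 or 4 or HFD+L-NAME replicates 1, 3 or 4 (up to 0.0920).

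**Figure D4:**
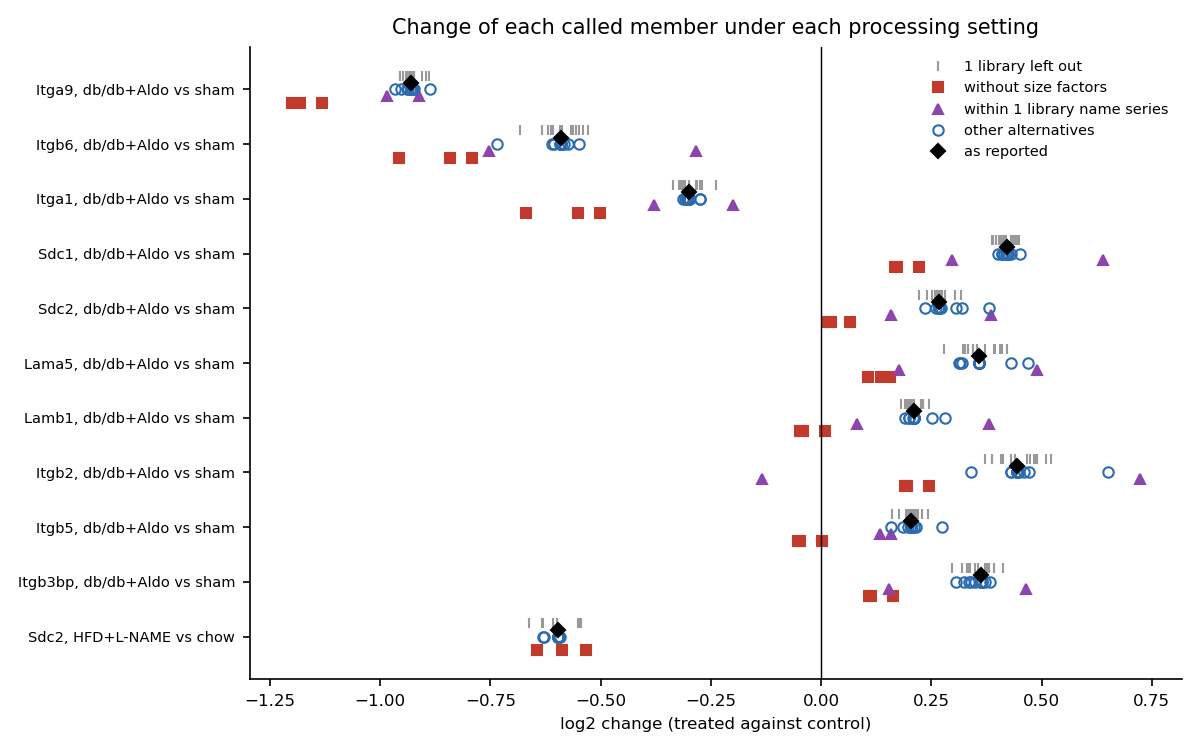
Log2 change of each called member as reported and under each processing alternative, in db/db+Aldo against sham and, in the last row, for Sdc2 in HFD+L-NAME against chow. Symbols separate 1 library left out, fits without size factors, fits within 1 library name series and other alternatives. Itga9 stays between −1.20 and −0.89, and Lamb1 and Itgb5 reach 0 or below without size factors.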

How the data were processed

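Whole-heart RNA-seq of 23 mice was deposited as a table of values corrected for sequencing run (a score that falls below 0 for 10.2% of values) with tables of the authors' comparisons. These give the mean normalised count (a signal), log2 fold changes and p-values, per the file headers. The submitters' processing notes name featureCounts, DESeq2, limma, GRCm38 and mm10, with no versions or roles, and the use of strand is not given in the sources used here. Within a run the deposited values were whole counts less 1 shift per gene. Counts were recovered from those and the authors' means for 52392 genes (db/db+Aldo model) and 52390 genes (HFD+L-NAME model), of which 99.979% and 100% came out whole within 0.001, and 3095 and 3097 genes were left out. They were divided by the authors' size factors, which were estimated from the deposited means of genes with 1 count in 1 library of the model.

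On the scale of log2(normalised count + 1), genes whose mean reached 10 were tested by limma (version 3.58.1, R version 4.3.3). The model had a sex term and a trended prior variance, and p-values were adjusted over all genes of a comparison by Benjamini-Hochberg, with a threshold of 0.05. Fold changes are on that scale and understate those of low genes. The test was tried on simulated data with 200 changed genes. Replicate numbers did not pair samples. The deposited unit is a score, and edgeR was not run on the recovered counts. The members, lists and tests were chosen with earlier results of these data known. The text names all called members, the uncalled ones nearest the threshold, those of the same role as a called member and, of each pathway list, the 3 called genes with the smallest p. Of the genes chosen by this rule, 1 is not reported here. Some members were named for their levels or single libraries after these were seen. Alternatives covered scaling, filters, covariates and left-out libraries. Python 3.11.15, numpy 2.4.6, pandas 2.3.3 and matplotlib 3.10.9 were used. Levels per kilobase use annotated exon length, and gene positions come from GENCODE M21.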

Additional observations from a re-analysis of the deposited data

Results flagged for a closer look

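In 11 of 164 combinations of a member and a group, 1 library stood far from the rest of its group by Dixon's criterion, where chance gives about 5 percent. Of these, 4 were in db/db+Aldo replicate 5: Itgav at 186 normalised counts against 377 to 501 in the other 7 libraries, Lamc1 at 3093 against 3887 to 4496, Sdc2 at 766 against 911 to 1037, and Itgb7 at 25.4 against 6.83 to 15.3. Itgb7 encodes a leukocyte beta subunit and was the one of these 4 that stood above its group.

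Among sham hearts, Itga9 was at 1687 in replicate 5 against 1408 to 1522 in the rest, and Itgb8 at 57.7 in replicate 4 against 26.8 to 39.0. Among chow hearts, Itgal was at 46.5 and Itgb7 at 19.0 in replicate 2, against 15.2 to 20.5 and 13.6 to 14.2. Itga2b was at 15.2 in chow replicate 1 against 19.6 to 20.5, and Sdc2 at 828 in chow replicate 3 against 712 to 723. Itgb6 was at 186 in HFD+L-NAME replicate 2 against 318 to 343.

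The effects of the models differed in the limma test of the difference for Itga9 (−0.94), Sdc1 (0.65) and Sdc2 (0.86 on the log2 scale, db/db+Aldo less HFD+L-NAME).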

How the results depend on the processing

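The count of 10 called members in db/db+Aldo hearts was 5 without the filter, 5 with the replicate number as a block, 6 with library series as a covariate, 5 within 26xx and 1 within 9xx libraries. Risers numbered 2, 3, 3, 2 and 0 under the same settings, 0 with no size factors, total-count scaling or deposited values, and 11 with array weights. Fallers numbered 8, 9 and 9 under those 3 scalings and 1 within 9xx. The replicate block paired numbers whose libraries did not deviate together (r from −0.22 to 0.11 over 7 pairs and 0.093 to 0.385 over 4, with 0 and 2 pairs best with their own number). The 1 call in HFD+L-NAME was 2 without the filter or with array weights and 0 without a variance trend, and the 3 differences between models were 5 with total-count scaling and 7 with array weights.

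Leaving out 1 library at a time gave 5 to 13 calls (2 to 9 risers, 2 to 4 fallers) in db/db+Aldo, 1 to 2 in HFD+L-NAME, 2 to 4 differences between models, and 0 to 1 in both sex tests of the HFD+L-NAME model.

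Directions turned as follows, in the order no size factors, total-count scaling and deposited values where 3 values are given, and without the second where 2 are. In db/db+Aldo hearts, Itgb1 was −0.0647, −0.0146 and −0.0753, Itgb5 −0.0479 and −0.0532, and Lamb1 −0.0415 and −0.0478. Within 9xx, where the change compares males alone, Itgam was −0.20 and Itgb2 −0.13. The cause was not tested beyond the shift of all genes under these scalings. In HFD+L-NAME hearts Itga9 was −0.0391 and −0.0383, Itgb5 −0.0339 and −0.0306, and Itgb6 −0.0223 and −0.0156. With array weights Itga9 was −0.0533 and Itgb5 −0.00135, and Itgb6 was −0.00121 without the doubted libraries. Their ranges with 1 library left out were −0.13 to 0.11, −0.0353 to 0.0699 and −0.14 to 0.23. The difference between models was −0.11, −0.12 and −0.12 for Itgb2, −0.0140, −0.0212 and −0.0227 for Itgb5, and −0.0595, −0.0667 and −0.0627 for Lamb1. For Itgb2 it was −0.0159 with the replicate block and −0.0602 to 0.18 with 1 library left out.

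Scaling with edgeR's TMM was not run. The HFD+L-NAME model has 4 libraries a group, and members with low counts, such as Itgal and Itgax, have the larger standard errors.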

Other observations

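Itgae, Itgb2l and Lama1 stayed below a mean of 10 normalised counts in both models. The difference between the models' effects was also tested for pathway genes, where 3.05% of all genes were higher and 2.33% lower in db/db+Aldo. Of integrin ligands 1 was higher and 1 lower of 21, and of basement membrane partners 1 and 4 of 22. Of syndecan partners, glypicans and heparan sulfate enzymes the counts were 3 and 0 of 32. Those of the dystroglycan and dystrophin complex were 2 and 0 of 21, and 0 of 34 adhesion complex genes passed.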
